A study of Homo sapiens with 12 samples.

Results

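In HT29 cells exposed to the high dose of the extract, NQO1 and ME1 passed the thresholds for a differentially expressed gene (DEG; adjusted p under 0.05 and over 1.5-fold), and OSGIN1 did so at the medium dose. The mRNAs of NFE2L2 and KEAP1 themselves differed from vehicle by less than 0.25 on the log2 scale at every dose. Among the enzymes of NADPH supply and the pentose phosphate pathway, ME1 stood 1.65-fold, TKT 1.42-fold and PGD 1.33-fold above vehicle at the high dose, while TALDO1 and IDH1 overlapped with it. The 9 genes described are the transcription factor NFE2L2 (the gene of NRF2), its inhibitor KEAP1, the NRF2 targets NQO1 and OSGIN1, the NADPH-forming enzymes PGD, ME1 and IDH1, and the pentose phosphate enzymes TKT and TALDO1. They were chosen by name and pathway, with their values in these same comparisons known. Their levels and fold changes are therefore given as a description with no p-values. Where the calls of the fit across all genes are counted among them, the share of all genes that met the same call stands beside the count, and nothing is read from it. All 9 were among the 60675 gene IDs of the count table, and all 9 were among the 15374 genes that passed the filter on low counts.

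HT29 is an established human colorectal adenocarcinoma cell line, and RNA-seq was run on 12 libraries from it. The cells received a water extract of Aconitum carmichaeli Debeaux (ACD) for 24 h at a low dose of 20 µg/mL, a medium dose of 100 µg/mL or a high dose of 500 µg/mL. Control cells received the vehicle alone, phosphate-buffered saline with 2% dimethyl sulfoxide, in which the extract was also dissolved. Each of the 4 groups had 3 libraries, and all dose comparisons share the same vehicle libraries. Nothing in the labels says that the replicates came from separate cultures, so adjusted p-values measure only the spread between these libraries, which may be technical.

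NRF2 is a transcription factor that KEAP1 holds in the cytoplasm and marks for degradation. Electrophiles and oxidants modify cysteines of KEAP1, NRF2 then accumulates without any need for more of its mRNA, and it binds antioxidant response elements with a small MAF partner. Its target genes detoxify quinones, make glutathione and thioredoxin reductase, and supply the NADPH on which those reactions run. Cytosolic NADPH comes from the oxidative pentose phosphate pathway, in which PGD catalyses an NADPH-forming step, and from malic enzyme (ME1) and isocitrate dehydrogenase (IDH1). TKT and TALDO1 are enzymes of the non-oxidative branch, which forms no NADPH itself and returns pentose phosphates to glycolysis.

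The libraries held between 15941255 and 33866644 expected counts, and the 9 genes had between 210 (OSGIN1) and 25626.71 (NQO1) in a library. Of 11 colon epithelial markers, 10 were at 1 CPM (counts scaled to library size) or more in every library, with CDX1 the exception, and their sum was between 11371 and 13600 CPM. Of 12 markers of other cell types, 8 stayed under 1 CPM in every library and COL1A2 was at 0. Their sum was 11.4 to 12.8 CPM in vehicle, then 13.0 to 14.3, 12.6 to 15.0 and 14.8 to 17.9 CPM at the low, medium and high dose. CD68 carried most of this sum, and the part of these transcripts in the results was not tested. Mitochondrially encoded genes took 14.04% to 16.59% of the counts at the high dose and 7.41% to 11.05% in the other 9 libraries, and their part was likewise not tested beyond leaving them out of the library sizes. High-dose replicate 2, the shallowest library, stood apart from the rest. Its log2 difference from the rest of its group had an SD of 0.502 over the 10626 genes with more than 5 CPM, against 0.102 to 0.293 for the other 11 libraries. It was above both other high-dose libraries in 8 of the 9 genes and below both in OSGIN1, so high-dose values of the 9 genes are given with and without it. Fold changes of single genes of the lists further below are given with it included.

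NFE2L2 lies on the minus strand of chromosome 2 at 177218667-177392756 (GRCh38). Its level was 126, 117 and 123 CPM in the vehicle libraries, 139, 116 and 128 CPM at the low dose, 144, 140.0 and 143 CPM at the medium dose, and 138, 157 and 134 CPM at the high dose. All medium-dose and all high-dose libraries were above the highest vehicle library, and the low-dose libraries overlapped with vehicle. From the low to the high dose the log2 fold change was 0.07, 0.22 and 0.23 (SE 0.08 each), or 0.16 ± 0.07 at the high dose without replicate 2. The medium and the high dose did not separate from each other, with a log2 difference of 0.01 ± 0.08. Exons of NFE2L2 overlap AGPS and HNRNPA3 on the opposite strand, and the strand setting of the counting is not given in the sources used here. These are bulk libraries, in which a change in RNA per cell and a change in the share of cells with the RNA cannot be told apart.

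KEAP1, the adaptor that presents NRF2 to the CUL3 ubiquitin ligase, lies on chromosome 19 at 10486125-10503558 on the minus strand. It stood at 62.2, 58.0 and 56.5 CPM in vehicle, 55.2, 59.2 and 59.8 CPM at the low dose, 60.2, 59.8 and 60.1 CPM at the medium dose, and 59.4, 79.4 and 54.9 CPM at the high dose. Every dose overlapped with vehicle, and a single library, high-dose replicate 2, lay above the range of all others. At the high dose the log2 fold change was 0.13 ± 0.11 (SE), with a 95% interval from -0.12 to 0.37, and it turned to -0.04 ± 0.06 without that library. The ratio of NFE2L2 to KEAP1 counts was 2.07 ± 0.10 (SD, n = 3) in vehicle and 2.20 ± 0.28, 2.37 ± 0.03 and 2.24 ± 0.24 at the low, medium and high dose. All 3 medium-dose ratios were above the highest vehicle ratio of 2.19, whereas the high-dose ratios of 2.32, 1.98 and 2.43 straddled it.

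NQO1, a flavoenzyme that reduces quinones with NADH or NADPH, is a classical NRF2 target and also belongs to the gene battery of the aryl hydrocarbon receptor (AhR). It lies on the minus strand of chromosome 16 at 69706996-69726668. Vehicle libraries had 535, 478 and 497 CPM and low-dose libraries 518, 484 and 537 CPM, whereas medium-dose libraries had 624, 647 and 630.3 CPM and high-dose libraries 773, 1230 and 788 CPM. The low dose overlapped with vehicle, and the medium and high doses were separated from vehicle and from each other in every library. Log2 fold changes of 0.03, 0.33 and 0.89 (SE 0.15 each) were estimated at the low, medium and high dose, the last a 1.85-fold difference. Without high-dose replicate 2 the high-dose value was 0.63 ± 0.06, or 1.55-fold, which still met both DEG thresholds. A non-coding gene on the opposite strand overlaps NQO1 exons and had at most 201 counts in a library.

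OSGIN1, a stress-induced growth inhibitor under NRF2 control, was the least abundant of the 9 in every library. It lies on the plus strand of chromosome 16 at 83931311-83966332. Its level was 13.5, 12.03 and 11.3 CPM in vehicle, 13.2 CPM in each low-dose library, 20.2, 18.2 and 20.6 CPM at the medium dose, and 20.1, 14.9 and 17.6 CPM at the high dose. Medium-dose and high-dose libraries were all above vehicle, and the high-dose libraries spread across and below the medium-dose range. Estimated log2 fold changes were 0.11, 0.68 and 0.53 (SE 0.11 each) at the low, medium and high dose, with a difference of -0.16 ± 0.11 between high and medium. Without high-dose replicate 2 the high-dose value was 0.62 ± 0.09, or 1.54-fold, and OSGIN1 then met both DEG thresholds at the high dose as well. The medium-dose call itself was lost without vehicle replicate 2 or 3 and without medium-dose replicate 1 or 3, with log2 fold changes between 0.63 and 0.67. Some exonic sequence of OSGIN1 is shared with MLYCD on the same strand.

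**Figure D1:**
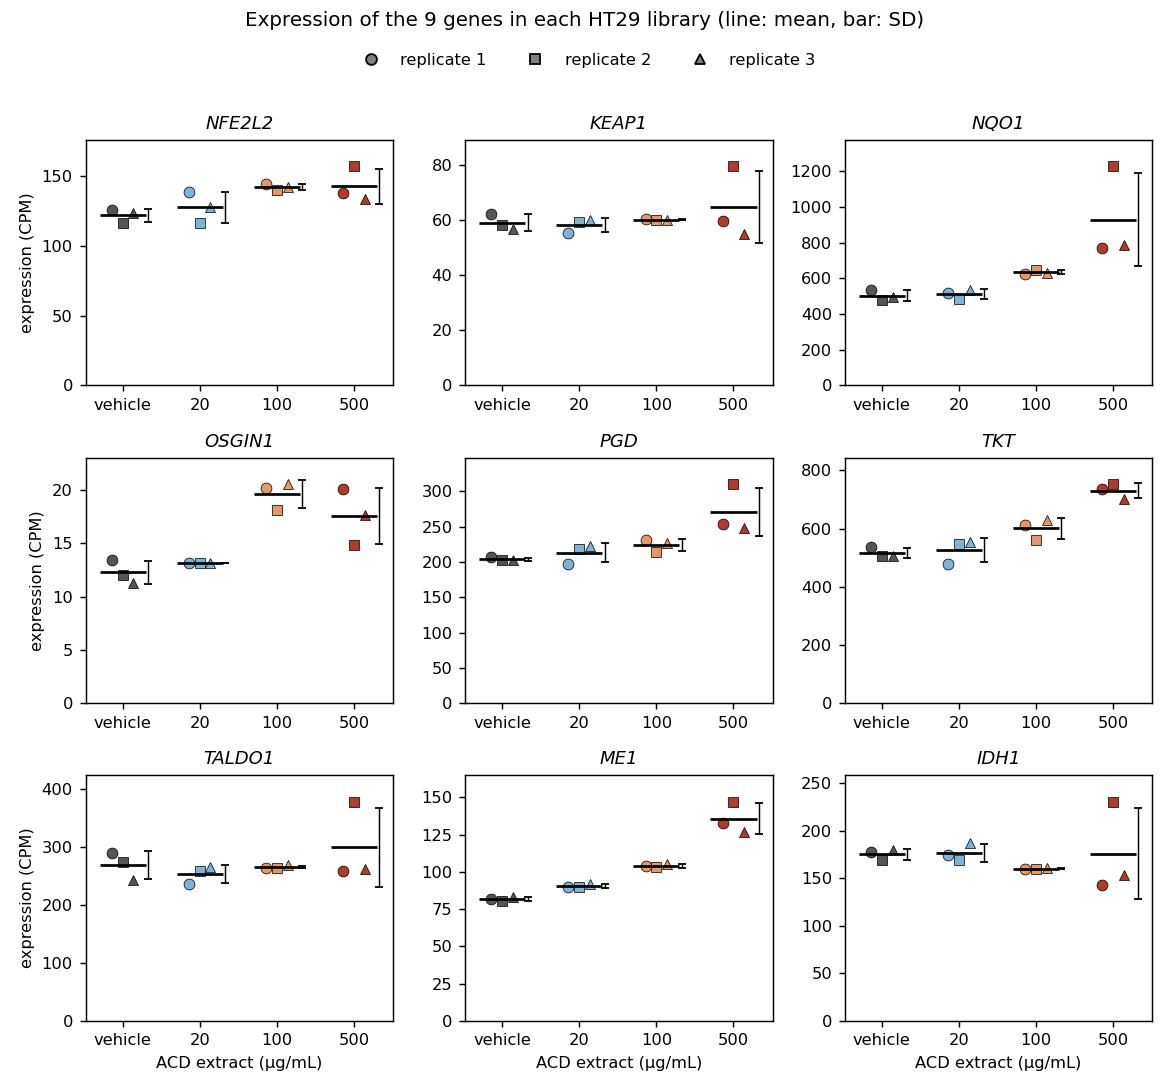
Expression of the 9 genes in CPM (vertical axes, each starting at 0) in every library by extract dose in µg/mL (horizontal axes); symbols mark the replicate number, horizontal lines the mean and bars the SD (n = 3). NQO1, TKT and ME1 step upward from the low to the high dose, OSGIN1 is highest at the medium dose, and high-dose replicate 2 lies above its group in 8 of the 9 panels.

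PGD encodes 6-phosphogluconate dehydrogenase, which forms NADPH while making ribulose 5-phosphate, and lies on the plus strand of chromosome 1 at 10398592-10420511. Its level was 207, 203 and 203 CPM in vehicle, 197, 219 and 223 CPM at the low dose, 232, 215 and 226 CPM at the medium dose, and 254, 311 and 249 CPM at the high dose. The medium-dose libraries lay just above vehicle and the high-dose libraries above both, while the low dose overlapped with vehicle. The log2 fold change was 0.06 ± 0.09 (SE), 0.14 ± 0.09 and 0.41 ± 0.09 at the low, medium and high dose, and 0.30 ± 0.06 at the high dose without replicate 2. Its pseudogene PGDP1 had at most 1 count in any library.

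TKT encodes transketolase and lies on the minus strand of chromosome 3 at 53224712-53256052. It had 535, 507 and 506 CPM in vehicle, 479, 545 and 553 CPM at the low dose, 613, 559 and 629.6 CPM at the medium dose, and 735, 754 and 703 CPM at the high dose. From the low dose on, each dose lay above the dose beneath it in every library. The log2 fold change was 0.03 ± 0.08 (SE), 0.22 ± 0.08 and 0.50 ± 0.08 at the low, medium and high dose. TKT moved least with the library that stands apart, to 0.48 ± 0.07 without it.

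TALDO1, the gene of transaldolase, lies on the plus strand of chromosome 11 at 747415-765012. It stood at 289.9, 274 and 243 CPM in vehicle, 236, 258 and 265 CPM at the low dose, 264, 264 and 268 CPM at the medium dose, and 259, 379 and 262 CPM at the high dose. All doses overlapped with vehicle, unlike TKT at the medium and high doses. The high-dose log2 fold change was 0.16 ± 0.13 (SE), with a 95% interval from -0.13 to 0.44, and -0.05 ± 0.07 without replicate 2.

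ME1, the cytosolic NADP-dependent malic enzyme, was the 1 gene of the 9 whose low-dose libraries all lay above vehicle. It lies on the minus strand of chromosome 6 at 83210402-83431051. Vehicle libraries had 82.1, 80.5 and 83.4 CPM, low-dose libraries 89.8, 89.7 and 91.9 CPM, medium-dose libraries 104, 103 and 105 CPM, and high-dose libraries 133, 147 and 127 CPM. No library of any group overlapped with a neighbouring group, the low dose included. Its log2 fold changes were 0.14, 0.34 and 0.73 (SE 0.07 each) at the low, medium and high dose, the last a 1.65-fold difference. Leaving out high-dose replicate 2 gave 0.66 ± 0.05, or 1.58-fold, at the high dose.

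IDH1, the cytosolic NADP-dependent isocitrate dehydrogenase, was the 1 gene of the 9 with every library of a dose below vehicle. It lies on the minus strand of chromosome 2 at 208236229-208266074. It had 178, 169 and 179 CPM in vehicle, 174, 169 and 187 CPM at the low dose, 159.8, 159.5 and 160.4 CPM at the medium dose, and 143, 230.5 and 154 CPM at the high dose. The medium-dose libraries were all below vehicle, and the high-dose libraries fell on either side of it. The log2 fold change was 0.01 ± 0.14 (SE), -0.13 ± 0.14 and 0.00 ± 0.14 at the low, medium and high dose, with a 95% interval from -0.30 to 0.31 at the high dose. Without high-dose replicate 2 the high-dose value was -0.24 ± 0.06, and IDH1 was then among the genes below an adjusted p of 0.05 on the lower side. The share of all genes on that side was not counted for that fit.

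**Figure D2:**
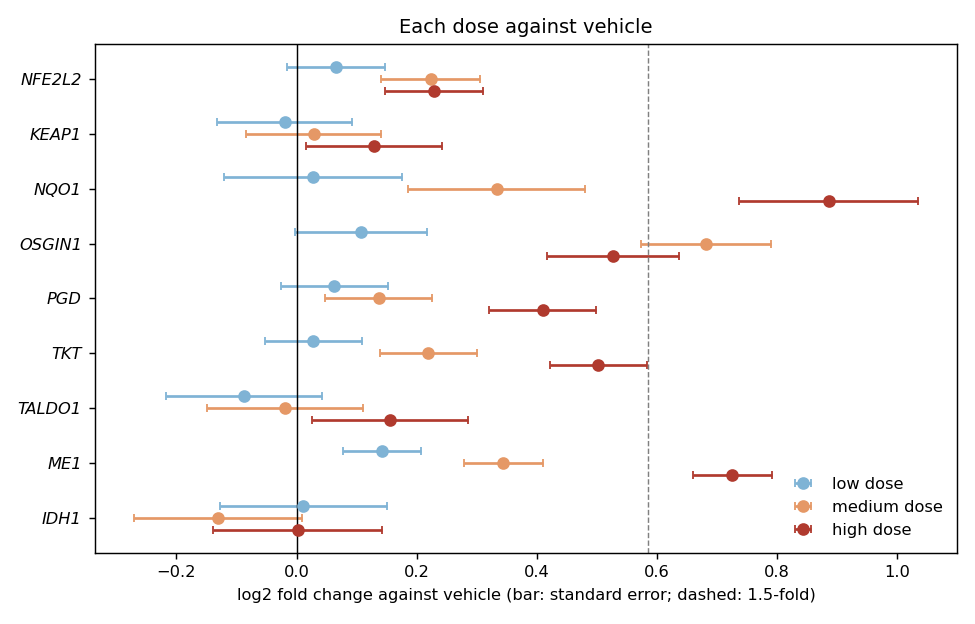
Log2 fold change of each gene against vehicle (horizontal axis) at the low, medium and high dose; points are edgeR estimates, bars their standard errors, and the dashed line marks 1.5-fold. NQO1 (0.89) and ME1 (0.73) lie beyond the dashed line at the high dose, OSGIN1 (0.68) at the medium dose, and KEAP1, TALDO1 and IDH1 stay near 0.

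Counted by dose, none of the 9 genes was a DEG at the low dose by edgeR's quasi-likelihood test, where 0.065% of all genes were upregulated DEGs and 0.0715% were higher at an adjusted p under 0.05. DESeq2 on all libraries also called 0 of the 9 there, with 48 DEGs among all genes. By edgeR 1 of the 9, ME1, had an unadjusted p under 0.05, and the share of all genes at that limit was not counted. ME1 was also the 1 gene of the 9 with every low-dose library above vehicle, which held for 11.4% of all genes. At the medium dose 1 of the 9 was an upregulated DEG (OSGIN1) against 0.384% of all genes, and 2 (OSGIN1 and ME1) were higher by adjusted p alone against 0.572%. Every medium-dose library was above vehicle in 6 of the 9 against 14.5% of all genes, and below it in 1 of the 9, IDH1, against 14.1%. At the high dose 2 of the 9 were upregulated DEGs against 1.26% of all genes, and 5 (NQO1, OSGIN1, PGD, TKT and ME1) were higher by adjusted p alone against 2.82%. Those 5 and NFE2L2 had every high-dose library above vehicle, 6 of 9 against 10.5%. Because these same comparisons were known when the genes were chosen, nothing is read from the counts beside the background. The median log2 fold change of the 9 was 0.03, 0.22 and 0.41 at the low, medium and high dose, against -0.00, -0.01 and 0.01 over all genes tested. Without high-dose replicate 2 the middle value at the high dose was that of PGD, 0.30, and KEAP1, TALDO1 and IDH1 had negative estimates.

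Leaving out high-dose replicate 2 narrowed the estimated spread for all groups, because the groups share it. At the high dose 3 of the 9 were then upregulated DEGs (NQO1, OSGIN1 and ME1), against 1.93% of the 15674 genes tested in that fit, and 5 were higher by adjusted p alone, against 9.83%. At the medium dose 5 of the 9 (NFE2L2, NQO1, OSGIN1, TKT and ME1) were higher by adjusted p alone, against 3.62%, and OSGIN1 was again the 1 DEG, against 0.689%. The low dose again had 0 of the 9 by either call, against 0.217% of all genes as upregulated DEGs and 0.97% higher by adjusted p alone.

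**Figure D3:**
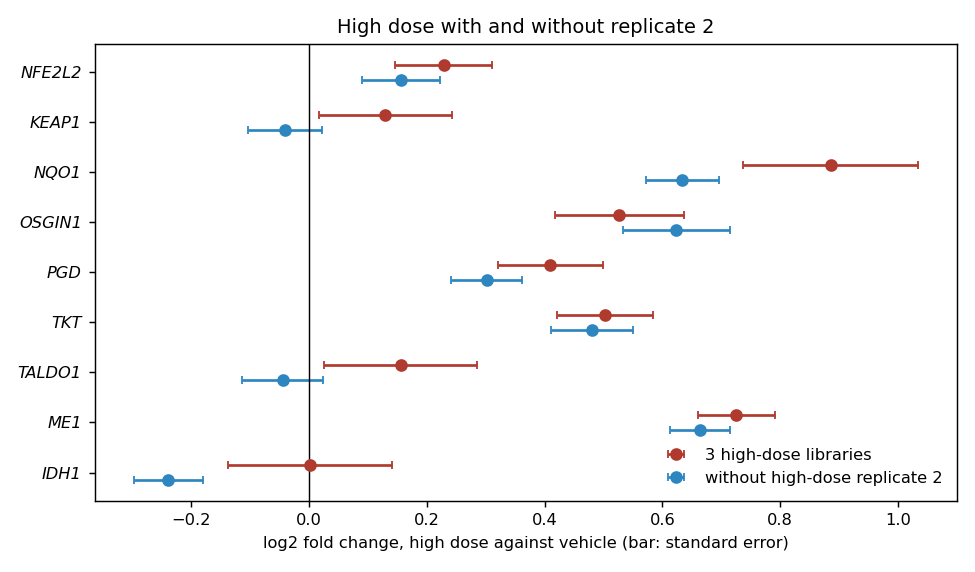
High-dose log2 fold change against vehicle (horizontal axis) of each gene with all 3 high-dose libraries and without high-dose replicate 2; points are edgeR estimates and bars standard errors. NQO1 moves from 0.89 to 0.63 and IDH1 from 0.00 to -0.24, KEAP1 and TALDO1 change sign, and TKT and ME1 move by less than 0.1.

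Levels of the 9 genes can be set against each other only per length of transcript. Per kb of all annotated exons, vehicle cells had most NQO1 (169 ± 9.84 CPM per kb, SD, n = 3), followed by TALDO1 (92.6 ± 8.13), PGD (61.2 ± 0.696), TKT (54.3 ± 1.75), IDH1 (37.3 ± 1.22), ME1 (24.6 ± 0.430), KEAP1 (16.5 ± 0.840), NFE2L2 (8.14 ± 0.308) and OSGIN1 (2.21 ± 0.201). No neighbours in this order overlapped between libraries. The order depended on which exons were counted: per kb of the longest transcript, TALDO1 (219) passed NQO1 (199), IDH1 (71.8) passed TKT (70.8), and NFE2L2 (23.9) passed KEAP1 (22.2). NFE2L2 moved furthest between these scales, since its annotated exons cover 14975 bases and its longest transcript 5104.

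**Figure D4:**
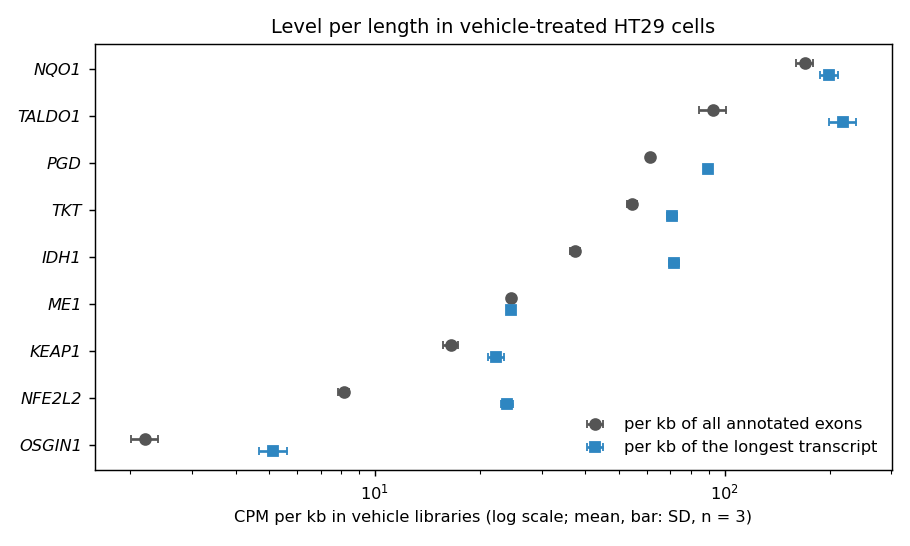
Level in vehicle-treated HT29 cells in CPM per kb (log axis) of the 9 genes, scaled by all annotated exons or by the longest transcript; points are means and bars SD (n = 3). NQO1, TALDO1 and PGD lead on both scales and OSGIN1 is lowest on both, at 2.21 and 5.13 CPM per kb.

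The stretches below are the matches to the core of the antioxidant response element, TGACNNNGC, found upstream of the start in RefSeq promoter windows (GRCh38.p14, 250 bases before to 50 after the start, both strands). They are shown because NRF2 binds this element, and because the genes that hold the letters differed in their levels. ME1 libraries were above vehicle at each dose (log2 fold change 0.14, 0.34 and 0.73), and PGD libraries at the medium and high dose (0.14 and 0.41). Of these values only that of ME1 at the high dose was a DEG. KEAP1 overlapped with vehicle at every dose. IDH1 was at 0.00 or, without high-dose replicate 2, -0.24 on the log2 scale at the high dose. Each is printed 5′ to 3′ on the strand of the gene, with the 9 matching letters in capitals. In PGD and in the second KEAP1 stretch the match is on the other strand.
ME1, chr6:83431170-83431198, minus strand: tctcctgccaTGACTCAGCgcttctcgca
PGD, chr1:10398853-10398881, plus strand: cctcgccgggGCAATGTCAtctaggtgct
IDH1, chr2:208255196-208255224, minus strand: cccctctcgcTGACTCCGCccatcccacg
KEAP1, chr19:10502807-10502835, minus strand: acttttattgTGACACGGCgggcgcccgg
KEAP1, chr19:10502784-10502812, minus strand: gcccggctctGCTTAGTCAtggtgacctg
The printed ME1 match lies 137 to 129 bases before the start, the PGD match 201 to 193, the IDH1 match 143 to 135, and the KEAP1 matches 54 to 46 and 31 to 23. The ME1 window held a further match, on the other strand and after the start, which is not printed. The IDH1 and KEAP1 stretches overlap an annotated exon, and whether that exon belongs to the same gene was not checked. IDH1 and KEAP1 have 2 windows each. All 9 genes had an entry, with 12 windows in all, and 4 of the 12 windows held the letters, against 13.35% of the 35116 windows of all genes. The windows of NQO1, OSGIN1, TKT, TALDO1 and NFE2L2 did not hold them, which says only that these letters are not in this stretch. GCGTG, the core of the xenobiotic response element to which AhR binds, was in 9 of the 12 windows and in 36.54% of all windows, and its letters can overlap the first motif at either end. The matches are letters in a sequence, and no binding was measured.

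Genes whose profiles were nearest to the 2 high-dose DEGs were sought among 13132 genes by the root mean square difference of log2 CPM, centred on vehicle, over the 12 libraries. For ME1 these were ERRFI1 (0.055), AMIGO2 (0.067) and GCLC (0.080), the catalytic subunit of the enzyme that limits glutathione synthesis. For NQO1 they were AREG (0.099), AMIGO2 (0.102) and IFNGR1 (0.115). High-dose replicate 2 is among the 12 libraries, and nearness says nothing of shared function.

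Around the 9 genes, related genes were grouped in lists, and the calls come from the same fit with p-values adjusted over all 15374 genes. These lists too were drawn up with results of these data known. Their counts and medians are therefore a description, and nothing is read from them beside the background. No list was tested as a set. Of 15 other regulators of NRF2, 0 were DEGs at the high dose by edgeR, against 1.26% of all genes as upregulated DEGs, and 0 by DESeq2. By adjusted p alone 2 were higher, against 2.82% of all genes. At an unadjusted p under 0.05, 5 were higher. Shares of all genes at that unadjusted limit were not counted, here or for the lists below. SQSTM1, which binds KEAP1, was upregulated by 0.35 ± 0.07 on the log2 scale (SE, adjusted p = 0.0101), and MAFF, a small MAF partner, by 0.31 ± 0.08 (adjusted p = 0.0452), both under the 1.5-fold threshold and both named after their values were seen. CUL3, the scaffold of the ligase, had 101 ± 1.55 CPM (SD, n = 3) in vehicle and 101 ± 7.37 CPM at the high dose. RBX1, its RING subunit, had 37.3 ± 5.54 and 36.4 ± 8.61 CPM. The median log2 fold change of the list was 0.13, against 0.01 over all genes. Without high-dose replicate 2, 5 regulators were higher by adjusted p, against 9.83% of all genes in that fit, and the median of the list was 0.16.

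Within the list of other NRF2 targets, most genes were higher at the high dose. Of 31 genes 30 could be tested, 13 were upregulated DEGs against 1.26% of all genes, 23 were higher by adjusted p alone against 2.82%, and 0 were lower even at an unadjusted p under 0.05. All 30 had a positive estimate at the high dose, and their median log2 fold change was 0.54, against 0.41 for the 9 genes and 0.01 for all genes. At the medium dose 6 were upregulated DEGs, against 0.384% of all genes. At the low dose 0 were by edgeR (against 0.065% of all genes) or DESeq2, with 3 higher and 1 lower at an unadjusted p under 0.05. Without high-dose replicate 2 the high dose gave 14 upregulated DEGs, against 1.93% of all genes in that fit, and 25 higher by adjusted p, against 9.83%. The median of the targets was then 0.48.

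ALDH3A1, an aldehyde dehydrogenase that also belongs to the AhR battery, had the highest fold change among these targets, 1.82 ± 0.07 on the log2 scale (SE, adjusted p = 3.43e-08). Its libraries stood at 22.9, 21.5 and 20.7 CPM in vehicle, 51.7, 52.7 and 53.6 CPM at the medium dose, and 74.0, 81.4 and 74.1 CPM at the high dose, with no overlap. SLC7A11, the cystine importer that feeds glutathione synthesis, had 129.7, 142 and 145 CPM in vehicle and 338, 269 and 351 CPM at the high dose (log2 fold change 1.20 ± 0.10, adjusted p = 2.93e-05). The subunits of glutamate-cysteine ligase were upregulated together, GCLC by 0.77 ± 0.06 (adjusted p = 2.30e-05) and GCLM by 0.75 ± 0.09 (adjusted p = 0.000335). AKR1C2 and AKR1C1, aldo-keto reductases, were higher by 1.41 ± 0.19 and 1.36 ± 0.18 (adjusted p = 0.000889 and 0.000786), and reads of these near-identical relatives may be divided between them uncertainly. High-dose libraries had 21.1, 37.5 and 22.1 CPM of AKR1C2 and 26.7, 48.7 and 29.7 CPM of AKR1C1, with replicate 2 the highest in both. ABCC2, an efflux pump for conjugates, was higher by 1.17 ± 0.27 (adjusted p = 0.0252) at a mean of 0.744 CPM in vehicle. That call did not hold in every alternative. It was lost with a replicate block, and the filter of at least 10 counts in every library removed the gene.

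**Figure D5:**
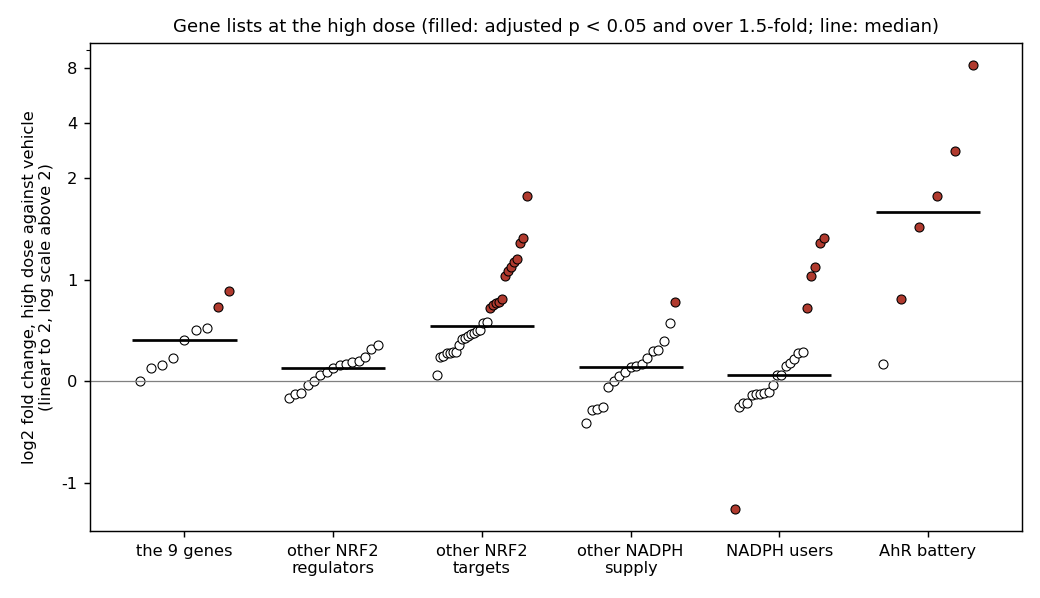
High-dose log2 fold change against vehicle (vertical axis, linear up to 2 and logarithmic above) of the tested genes of each list; each point is a gene, filled where it was a DEG, and lines mark the medians. All 30 other NRF2 targets lie above 0 with a median of 0.54, and the AhR battery has the highest median, 1.67. The medians of the other regulators (0.13), other NADPH supply genes (0.14) and NADPH users (0.06) lie near 0.

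Of 19 remaining genes of NADPH supply and the pentose phosphate pathway 17 could be tested. At the high dose 1 was an upregulated DEG against 1.26% of all genes, 3 were higher by adjusted p alone against 2.82%, and 0 were lower by adjusted p, with 2 lower at an unadjusted p under 0.05. Their median log2 fold change was 0.14, against 0.01 over all genes. Without high-dose replicate 2 there were 2 upregulated DEGs, against 1.93% of all genes in that fit. By adjusted p alone 4 genes were higher, against 9.83%, and 2 lower, and the median was 0.07. The share of all genes lower by adjusted p in that fit was not counted. The DEG was MTHFD2, a mitochondrial enzyme of the folate cycle known mainly for using NAD rather than NADP, at 151, 146 and 143 CPM in vehicle and 220.3, 313 and 223 CPM at the high dose (log2 fold change 0.78 ± 0.12, adjusted p = 0.00179). ALDH1L1, a cytosolic folate enzyme that forms NADPH, was higher by 0.40 ± 0.10 (adjusted p = 0.0405) and is named after its value was seen. PGLS, the lactonase that acts just ahead of PGD, had 30.3 ± 3.63 CPM (SD, n = 3) in vehicle and 34.1 ± 2.703 CPM at the high dose (log2 fold change 0.17 ± 0.10, adjusted p = 0.374).

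Because NQO1 and ALDH3A1 belong to both batteries, the AhR genes were set beside them. Of 7 genes 6 could be tested, and 3, 5 and 5 were upregulated DEGs at the low, medium and high dose, against 0.065%, 0.384% and 1.26% of all genes. AHRR was a DEG at no dose and is named after its values were seen. Its log2 fold change was 0.22 ± 0.19 (SE) at the low dose and 0.33 ± 0.19 at the medium dose. Its libraries overlapped with vehicle at both of these doses. ALDH3A1 and UGT1A6 are counted both here and among the other NRF2 targets. CYP1B1, a xenobiotic-metabolising cytochrome, stood at 43.98, 47.5 and 51.8 CPM in vehicle, 155, 101 and 106 CPM at the low dose, 373, 401 and 384 CPM at the medium dose, and 348, 299 and 358 CPM at the high dose. TIPARP, an AhR-induced ADP-ribosyltransferase, was upregulated by 0.74 ± 0.09 on the log2 scale at the low dose already (SE, adjusted p = 0.00356), and by 1.43 ± 0.09 (adjusted p = 3.30e-06) and 1.51 ± 0.09 (adjusted p = 9.55e-07) at the higher doses. At the low dose, where CYP1A1, CYP1B1 and TIPARP were the 3 upregulated DEGs, NQO1 was at 0.03 ± 0.15 and ALDH3A1 libraries had 26.7, 27.2 and 29.1 CPM, above vehicle but not a DEG. CYP1A1, which was near 0 in vehicle (0.285 ± 0.153 CPM, SD, n = 3), reached 98.4 ± 5.52 CPM at the high dose. UGT1A6, a glucuronosyltransferase that shares exons with the rest of its locus, was upregulated by 0.81 ± 0.12 at the high dose (adjusted p = 0.00156). Its libraries had 43.3, 45.1 and 43.4 CPM in vehicle and 74.6, 93.6 and 63.2 CPM at the high dose. CYP1A2 had at most 0.180 CPM in a library and was not tested.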

How the data were processed

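Gene-level expected counts of 12 HT29 libraries were used as the authors deposited them. Per the submitters' processing notes, reads were checked with FastQC 0.11.9, trimmed with Trim Galore 0.6.5, aligned with STAR 2.7.3a and counted with RSEM 1.3.3 on GRCh38 (annotation release 84); the strand setting is not given in the sources used here. RSEM shares out multi-mapping reads, so values of near-identical genes are estimates. Libraries were grouped by their titles; a treatment note in the labels names another medicinal material, Poria cocos. Counts were rounded, filtered with filterByExpr (15374 of 60675 IDs), scaled by TMM and fitted over all 4 groups with edgeR 4.0.16 (quasi-likelihood, robust; R 4.3.3). The study itself used DESeq2, run here (1.42.0) as an alternative. Adjusted p-values are Benjamini-Hochberg over all tested genes, and a DEG had an adjusted p under 0.05 and over 1.5-fold. Standard errors were derived from the F statistic. CPM values are TMM-scaled, and 2 was the prior count for log2 CPM. The scripts were tested on simulated data. Depth was 15941255 to 33866644 expected counts per library, and the biological coefficient of variation was 11.24%.

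The members and lists were chosen with earlier results of these data known. Named genes were the 9 members, the first 2 genes of each list and up to 5 of its high-dose DEGs by absolute log2 fold change, and the 3 genes nearest in profile to each member that was a high-dose DEG. Coordinates and exon lengths come from GENCODE 44 (GRCh38) and promoter windows of 300 bases from RefSeq. Alternatives covered normalization, filters, tests, library sizes, a replicate block and each library left out. The values of 1 gene of the lists are not reported here, although the counts of its list include it.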

Additional observations from a re-analysis of the deposited data

How the results depend on the processing

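The number of libraries limits these data: with 3 libraries a group, 1 library can set a value, as high-dose replicate 2 does for NQO1, KEAP1, TALDO1 and IDH1. The DEGs among all genes numbered 17, 104 and 451 at the low, medium and high dose. At the low dose they became 48 with DESeq2 on all libraries, 62 with DESeq2 and 51 with edgeR on vehicle and 1 dose alone, and 34 with no filter on low counts. At the medium dose DESeq2 and edgeR on vehicle and 1 dose alone gave 164 and 191. At the high dose edgeR on vehicle and the high dose alone gave 172 DEGs, 1 of the 9 genes (ME1) and 0 other NADPH supply genes. With no minimum fold change the high dose gave 887 genes, 5 of the 9, 2 other regulators, 23 other targets and 3 other supply genes, and the medium dose gave 2 of the 9. Leaving out 1 library at a time gave 10 to 109 DEGs at the low dose, 52 to 249 at the medium dose and 310 to 768 at the high dose; the upper end of each range came without high-dose replicate 2 and the lower end without vehicle replicate 2. The same step gave 0 to 1 of the 9 at the medium dose and 1 to 2 other supply genes at the high dose.

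Among the 9, under 20 alternatives, ME1 was a high-dose DEG in 20, NQO1 in 19 and OSGIN1 in 2, and OSGIN1 was a medium-dose DEG in 16. By adjusted p alone at the high dose TKT was called in 19, PGD in 16 and OSGIN1 in 15, and at the medium dose ME1 in 9. Without the library that ended its call, the medium-dose log2 fold change of OSGIN1 was between 0.63 and 0.67. Libraries with the same replicate number had deviations correlated above 0.1 in 5 of 18 pairs (r from -0.50 to 0.37), and libraries with different numbers in 14 of 36. These pairs share libraries, and high-dose replicate 2 is among them, so the counts cannot exclude a pairing by number. With a replicate block the DEGs numbered 17, 75 and 379 at the low, medium and high dose, with 0, 1 and 2 of the 9 among them.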

Other observations

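Of 25 genes listed as NADPH users, not all of which take NADPH directly, 22 could be tested at the high dose. Among them 5 were upregulated DEGs, against 1.26% of all genes, and 1 was a downregulated DEG, against 258 of all 15374 genes. The median log2 fold change was 0.06, against 0.01 over all genes. The 5 upregulated DEGs are also NRF2 targets: TXNRD1, thioredoxin reductase, rose by 0.72 ± 0.07 on the log2 scale (SE, adjusted p = 7.73e-05), and the aldo-keto reductases AKR1B10 and AKR1C3 rose by 1.13 ± 0.10 (adjusted p = 3.08e-05) and 1.03 ± 0.17 (adjusted p = 0.00301), beside AKR1C1 and AKR1C2. High-dose libraries had 210, 269 and 209 CPM of AKR1B10 and 85.1, 143 and 103 CPM of AKR1C3, with replicate 2 the highest in both. Glutathione reductase, GSR, rose by 0.29 ± 0.06 (adjusted p = 0.0121), under the 1.5-fold threshold. The downregulated gene was NOX1, the colon epithelial NADPH oxidase that makes superoxide, at 17.6, 18.7 and 16.9 CPM in vehicle, 10.9, 11.7 and 12.5 CPM at the medium dose, and 7.16, 8.21 and 7.04 CPM at the high dose, a log2 fold change of -1.26 ± 0.09 (adjusted p = 7.35e-06). Without high-dose replicate 2 there were 5 upregulated DEGs, against 1.93% of all genes in that fit, and 1 downregulated DEG. The genes lower by adjusted p alone went from 1 to 2, and the median was 0.02. How many of all genes were lower in that fit was not counted for either call.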
